A study of Sus scrofa with 12 samples.

Results

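ENSSSCG00000048856 is a long noncoding RNA gene of the pig that lies on the minus strand of chromosome 2, at chr2:6752140-6757157 of Sscrofa11.1, and is 5018 bp long. It was the 1 member described here, of 571, 681, 519 and 649 RNAs that the chromatin-associated RNA lists held in the 4 libraries, and it was listed in all 4. The RNA was chosen by its measured listing on many chromosomes other than its own, so its number of bins, its chromosomes and its share of signal away from its gene are given as a description and carry no test. The values came from longissimus muscle, a skeletal muscle of the back, of 2-week-old piglets of the commercial lean breed Large White (LW) and the Chinese local breed Meishan (MS). Each breed had 2 libraries of GRID-seq, which ligates RNA to the DNA that lies next to it in fixed nuclei, and 2 libraries of H3K27ac BL-HiChIP, which records contacts between DNA fragments carrying H3K27ac, an acetylated histone found at active regulatory DNA. For GRID-seq the labels describe cells fixed with DSG, a longer-reaching crosslinker, and formaldehyde, whereas the study's methods describe frozen tissue fixed with formaldehyde, and which was used is not settled here. Neither breed carried a treatment or an engineered allele. The study's methods name a pair of male piglets without saying whether this is the number per breed or in all, so whether the libraries of a breed came from different animals is not settled, and p-values measure the spread between these libraries, which may be technical. Values of the 4 libraries are given in the order LW replicate 1, LW replicate 2, MS replicate 1 and MS replicate 2.

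Most RNAs that are found on chromatin are caught beside the gene that makes them, because they are still being transcribed there. Some long noncoding RNAs leave that place, stay in the nucleus and are met at many active genes, often those close to nuclear bodies where splicing factors collect. In the human genome the neighbourhood of the FRMD8 gene holds NEAT1 and MALAT1, nuclear RNAs of paraspeckles and speckles. ENSSSCG00000048856 lay near the pig gene FRMD8, but the lists give it no name and its correspondence to a human RNA was not tested.

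In the RefSeq annotation the gene fell inside LOC102163816, a longer lncRNA gene at chr2:6749941-6794116. The strand of that gene is not given in the table used, so reads of the 2 genes can be told apart only by position. On the lower-coordinate side LTBP3, which encodes a binding protein of latent TGF-beta, lay at 31949 bp. On the other side were the lncRNA gene LOC100513133 at 46433 bp and the protein-coding FRMD8 at 65807 bp. Only 2 other RNAs were listed within 200 kb of the gene in each library. ENSSSCG00000044913, at chr2:6797358-6803782, had 33640, 36978, 31935 and 38226 reads, and EHBP1L1, at chr2:6662463-6679028, had 3085, 3531, 2549 and 3039 reads. Most of the signal of both lay within 10 kb of their genes. For ENSSSCG00000044913 this was 79.5%, 69.8%, 83.1% and 69.5%, below the median listed RNA in each library (90.03%, 83.1%, 92.7% and 86.8%). It had bins on 3, 4, 3 and 9 other chromosomes. For EHBP1L1 the share within 10 kb was 98.9%, 97.95%, 99.6% and 92.5%. Of the signal of ENSSSCG00000044913, 1.60%, 1.92%, 2.73% and 10.6% lay on other chromosomes, and EHBP1L1 had none there.

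ENSSSCG00000048856 was among the most abundant RNAs on chromatin. It had 198855, 219847, 205368 and 243863 RNA reads, which were 2.43%, 2.21%, 2.86% and 2.60% of the reads on listed RNAs, and it ranked 5 in every library. Per kilobase of gene it had 39628, 43812, 40926 and 48598 reads, whereas the median listed RNA had 174, 164, 154 and 159. After scaling of the libraries by TMM the level was 28920 and 28912 CPM (reads scaled to a common library total) for the LW libraries. It was 34802 and 34761 CPM for the MS libraries. Both MS libraries lay above both LW libraries, and the groups did not overlap. The log2 fold change of LW against MS was -0.27 ± 0.0072 (SE, n = 2 libraries a breed), with an adjusted p of 9.93e-06 by edgeR's quasi-likelihood test over 308 RNAs. This call must be read against the background, because 267 of the 308 RNAs, or 86.7%, were called by the same test. The libraries of a breed were very close in this measure. They differed for this RNA by -0.00039 on the log2 scale in LW and by -0.0017 in MS, less than the sampling SD of 0.0045 and 0.0043, while the median RNA differed by 0.026 and 0.020. Over all 308 RNAs a chi-square test of the reads still found the libraries of a breed different. The variance was 56.0 times the sampling variance in LW and 82.2 times in MS, so they were kept as 2 libraries. Only 21.4% of the RNAs in LW and 12.7% in MS differed by more than 2 sampling SD. ABHD17A, LARP4, PACSIN2 and MTIF3 were among the largest differences in both breeds. This test does not show that the libraries are independent samples, and the SE of 0.0072 may measure technical spread alone. Without TMM the fold change was -0.24, and the adjusted p of 0.0958 no longer passed. Fewer cells that make the RNA and less RNA per cell cannot be told apart in tissue. An exact permutation test of 2 against 2 libraries can give no p below 0.333.

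The RNA was listed at 19593, 28911, 36541 and 65713 bins of 1 kb, which covered 0.819%, 1.21%, 1.53% and 2.75% of the genome. Of these bins, 17294, 26322, 33151 and 59062 lay on other chromosomes, and all 18 other chromosomes were reached in each library. By this number the RNA ranked 5, 5, 5 and 4 among the listed RNAs. Both MS libraries had more such bins than both LW libraries. The libraries of a breed also differed, and replicate 2, the library with more reads on listed RNAs, had more bins in each breed. Per 1000 RNA reads the numbers were 87.0, 120, 161 and 242. For all other RNAs together they were 56.8, 50.8, 73.7 and 69.4, so the difference between the libraries of a breed was not shared by the rest of the list. The log2 difference of LW from MS in bins on other chromosomes was -1.05, with an SD of 0.515 between libraries of a breed.

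**Figure D1:**
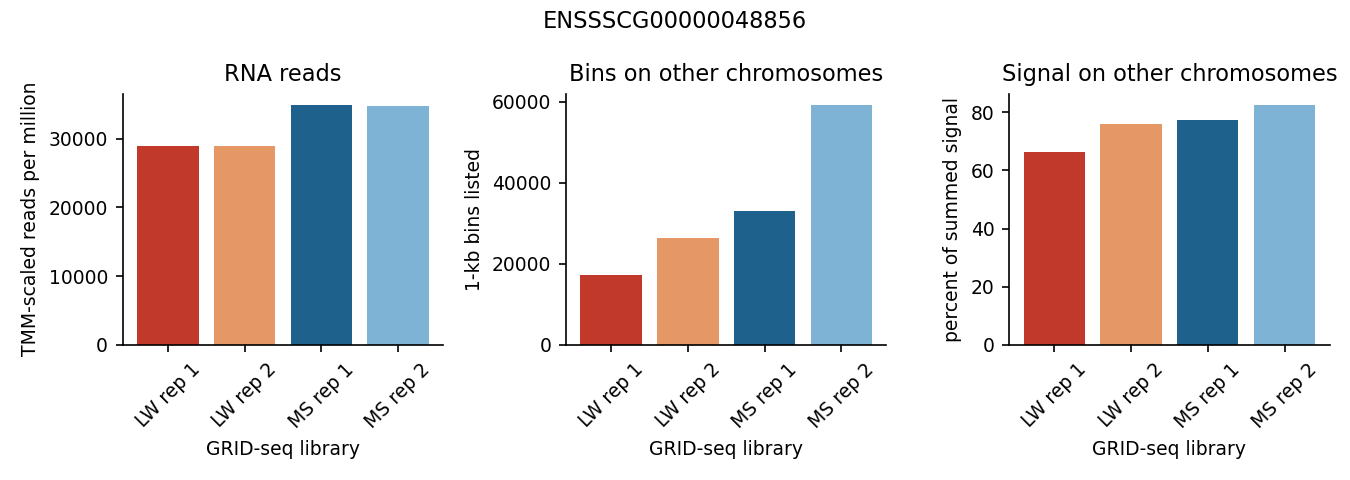
Reads, bins and signal of ENSSSCG00000048856 in the 4 GRID-seq libraries (one bar a library, LW in red tones and MS in blue tones), as TMM-scaled CPM, number of 1-kb bins on other chromosomes, and percent of the summed signal on other chromosomes. Reads were nearly equal within a breed, at 28920 and 28912 for LW and 34802 and 34761 for MS, whereas the 2 LW libraries had 17294 and 26322 bins and the 2 MS libraries 33151 and 59062.

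The signal is a background-corrected density relative to the RNA's own reads. Its share on other chromosomes was 66.3%, 76.0%, 77.4% and 82.3%, with an SD of 5.44 percentage points between libraries of a breed. Both MS libraries were above both LW libraries, but LW replicate 2 and MS replicate 1 lay closer together than the libraries of either breed. The gene itself and 10 kb on either side held 24.8%, 16.4%, 14.3% and 7.82% of the signal. Of the rest of chromosome 2, the part more than 1 Mb away held 7.27%, 6.47%, 6.47% and 8.40%, and the bands from 10 to 100 kb and from 100 kb to 1 Mb held between 0.443% and 1.04% each. For comparison, the median listed RNA had 90.03%, 83.1%, 92.7% and 86.8% of its signal within 10 kb, and 495, 590, 454 and 569 RNAs had no bin on another chromosome.

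**Figure D2:**
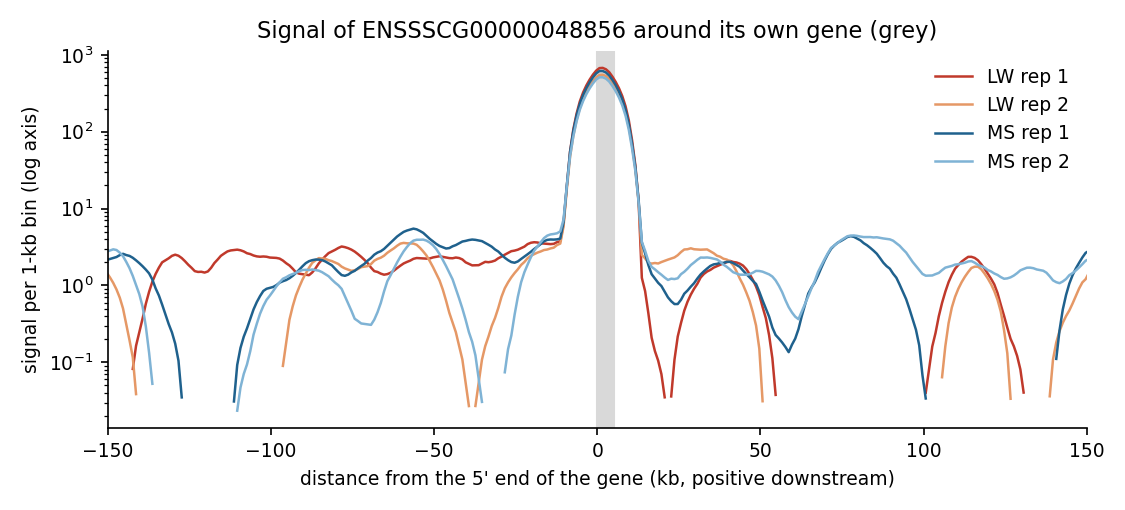
Signal per 1-kb bin of ENSSSCG00000048856 (log axis) against distance in kb from the 5′ end of its gene, with positive values downstream and the gene in grey, one line a library. All 4 lines peak over the gene, at 675, 550, 615 and 510, and are far lower away from it, with gaps where no bin was listed.

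At its own gene the RNA had its highest values, 675, 550, 615 and 510 per bin, in a bin centred 1.66 kb downstream of the 5′ end in 3 libraries and 0.657 kb downstream in MS replicate 1. The peak was alike in all 4 libraries. The signal changes smoothly from bin to bin, so neighbouring bins are not independent, and runs of adjoining bins are the better unit. There were 670, 990, 1191 and 1952 such runs on other chromosomes, with a median length of 23, 24, 26 and 28 kb and a median top value of 2.33, 2.16, 2.26 and 2.03. The run over the gene itself was 164, 89, 213 and 197 kb long and was longer in both MS libraries. It reached past FRMD8 in LW replicate 1 and MS replicate 1, into or beyond LTBP3 in LW replicate 2 and both MS libraries, and past EHBP1L1 in the MS libraries alone.

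Chromosomes differed in how densely they were reached. Chromosome 12, the chromosome richest in protein-coding genes, was the densest in all 4 libraries, with 2.69 times the bins per Mb of the median chromosome (mean of 4, range 2.27 to 3.09). Chromosome 6 followed with 1.56 times, then chromosome 3 and chromosome 2 beyond 1 Mb of the gene, both with 1.46 times, and chromosome 5 with 1.40 times. The ranges of these 4 overlapped, so their order is not settled by these libraries. The X chromosome was the sparsest in every library, at 0.180 times (0.115 to 0.244), below chromosomes 8 and 16 at 0.534 and 0.544 times. The study's methods name male piglets, which carry a single X, and the part of copy number in this value was not tested. Chromosome 17 varied most between libraries, from 0.785 to 1.80 times. Across the 19 chromosomes the Spearman correlation of bins per Mb with protein-coding genes per Mb was 0.812, 0.814, 0.874 and 0.888. The points share a library and its base composition, so this is a description. TTN RNA gave 0.763, 0.761, 0.773 and 0.808 over the 18 chromosomes other than its own, and ENSSSCG00000044834, the RNA with most bins on other chromosomes in LW, gave 0.197, 0.298, 0.781 and 0.866.

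**Figure D3:**
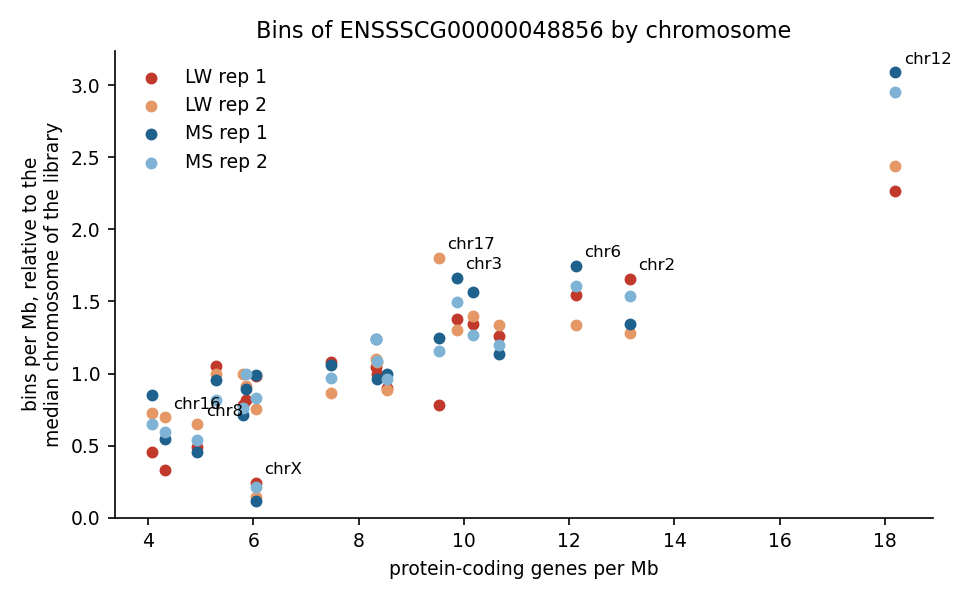
Bins per Mb of ENSSSCG00000048856 on each of 19 chromosomes, divided by the median chromosome of the same library, against protein-coding genes per Mb, one point a chromosome and library. Chromosome 12 is at the top in all 4 libraries (2.27 to 3.09) and the X chromosome at the bottom (0.115 to 0.244).

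The individual bins were only in part the same from library to library. LW replicates shared 1908 bins, which were 9.74% and 6.60% of their bins, and MS replicates shared 11076, or 30.3% and 16.9%. A library of one breed shared between 4.57% and 15.4% of its bins with a library of the other. Of 128647 bins listed in any library, 85.0% were in 1 library alone and 453 were in all 4. In windows of 1 Mb on other chromosomes the Spearman correlation between libraries was 0.270 within LW, 0.537 within MS, and 0.326 to 0.414 between the breeds. The lowest correlation was thus between the LW libraries, but LW replicate 1 shared 9.74% of its bins with LW replicate 2, which covered 1.21% of the genome, beside 9.66% with MS replicate 1 and 15.3% with MS replicate 2, which covered 1.53% and 2.75%. The part of the different numbers of bins in these values was not tested.

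The 453 bins listed in all 4 libraries formed 19 regions. Of these 13, with 302 bins, were on other chromosomes, and 12 of the 13 overlapped an annotated gene. Annotated genes cover 56.7% of the genome outside chromosome 2 and held 71.5%, 71.6%, 74.1% and 73.5% of the RNA's bins there. A longer region overlaps a gene more easily than a bin does, so the 12 of 13 only describe these regions. The longest was 128 kb over the 3′ part of TTN and LOC110257116, at chr15:84221001-84349000, and another 49 kb of the same gene stood at chr15:84390001-84439000. Next came 27 kb of NEB, at chr15:694001-721000, and 23 kb around DBP and SPHK2, at chr6:53977001-54000000. TTN and NEB encode titin and nebulin, giant proteins of the sarcomere, DBP is a transcription factor of the circadian output, and SPHK2 is a sphingosine kinase. Shorter regions lay at RRAS and SCAF1, at CHRNB1 and ZBTB4, at POLR3GL and ANKRD34A, at RUVBL2 and GYS1, and at HSPG2, FBXO31 and ACTN4. CHRNB1 is a subunit of the acetylcholine receptor of muscle, GYS1 is the muscle glycogen synthase, and ACTN4 is an alpha-actinin. On chromosome 2 the shared regions took in the RNA's own gene, the FRMD8 and SLC25A45 genes (58 kb), and LTBP3 (29 kb).

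TTN had the most signal of any gene on other chromosomes in each library. The RNA covered 62.3%, 75.4%, 99.3% and 100% of the 276 bins of the gene, chr15:84226953-84501320. Its mean signal there was 1.22, 1.57, 2.97 and 2.98 per bin. Both MS libraries were above both LW libraries. By summed signal, which favours long genes, TTN ranked 1 of 17486 protein-coding gene bodies on other chromosomes in all 4 libraries, and the longest run of bins on another chromosome overlapped it in all 4, at 128, 128, 156 and 304 kb, and reached beyond the 3′ end of the gene. The mean signal per bin was 133, 121, 175 and 108 times that of the RNA over all bins of the other chromosomes, listed or not. By the same measure ENSSSCG00000048037 reached 22.7, 0.630, 1.30 and 2.26 times its own level on other chromosomes, and ENSSSCG00000044834 3.65, 2.95 and 6.41 times, with no bin in MS replicate 2. In each library the ratio of ENSSSCG00000048856 was the highest of these 3 RNAs. NEB RNA, whose gene is on the same chromosome as TTN, reached 26.9, 60.4, 376 and 135 times. It was below ENSSSCG00000048856 in both LW libraries and above it in both MS libraries. The TTN gene is also where TTN RNA, one of the most abundant RNAs of the lists with 914086, 1016278, 697633 and 830738 reads, is made. The part of that local RNA in the signal of ENSSSCG00000048856 was not tested.

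**Figure D4:**
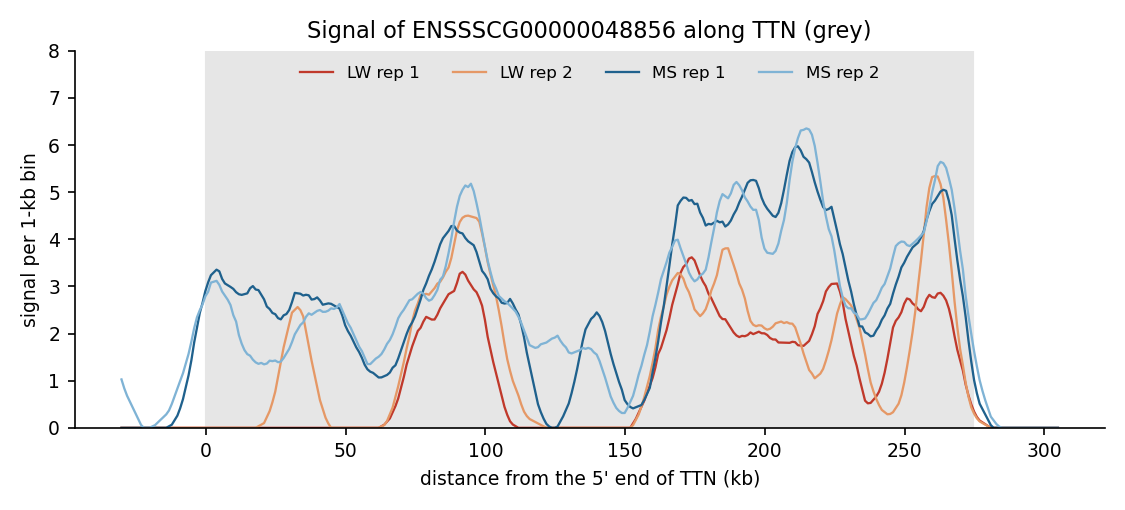
Signal per 1-kb bin of ENSSSCG00000048856 along TTN, by distance in kb from the 5′ end of TTN (gene in grey), one line a library. All 4 libraries have signal over a stretch near 90 kb and over the 3′ part of the gene, with a gap between them in both LW libraries, and the longest part of the gene with no signal is 62, 31, 2 and 0 kb.

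NEB ranked 3, 2, 44 and 26 by the same summed signal, with a mean of 0.467, 0.995, 0.244 and 0.358 per bin. Here the LW libraries were above the MS libraries, the reverse of TTN. NEB RNA itself had more reads in LW, with 155425 and 171935 reads against 82103 and 97784 in MS, and log2 fold changes of LW against MS by edgeR were 0.70 for NEB RNA and 0.17 for TTN RNA. The part of these RNAs in the result was not tested.

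Bins of the RNA stood at gene ends and at H3K27ac loop anchors in larger shares than the genome does. Of its bins, 34.6%, 33.8%, 39.5% and 39.1% lay within 5 kb of a gene end, where 17.6% of the genome lies, a ratio of 1.96, 1.92, 2.24 and 2.22. On anchors of H3K27ac loops called in either library of the same breed lay 37.4%, 38.4%, 46.4% and 46.6%, against 12.6% of the genome in LW and 10.6% in MS, a ratio of 2.96, 3.04, 4.40 and 4.41. Anchors of the other breed gave ratios of 3.24, 3.21, 3.98 and 4.03, so it was present with the loops of either breed. In gene ends and in same-breed anchors the MS libraries were above the LW libraries and the libraries of a breed were close. Among the compared RNAs the ratios at anchors were 1.45 to 1.96 for TTN, 2.04 to 3.41 for ENSSSCG00000048037, and 0.306, 0.377, 2.21 and 1.94 for ENSSSCG00000044834. In each library the ratio of ENSSSCG00000048856 was the highest of the 4 RNAs. The RNAs also differed in their number of bins, 19593 to 65713 for ENSSSCG00000048856 and 104803 to 211276 for TTN. There were 75846 to 230814 for ENSSSCG00000048037 and 46333 to 237150 for ENSSSCG00000044834. The part of this in the ratios was not tested. No test was made, since neighbouring bins are not independent.

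The ratio was higher still in genes whose own RNA was on the lists. The bodies of the other 307 RNAs listed in all 4 libraries make up 0.625% of the genome outside chromosome 2, and 5.01%, 4.60%, 6.23% and 6.03% of the RNA's bins on other chromosomes lay in them. Without the TTN gene the shares were 4.05%, 3.84%, 5.44% and 5.59%, or 6.61, 6.27, 8.88 and 9.11 times the genome share. This left-out set was chosen after seeing the data. TTN RNA had ratios of 2.05 to 2.50 there, and ENSSSCG00000048037 of 4.54, 4.30, 5.16 and 1.54. Of the 272 listed RNAs with genes on other chromosomes, 45, 52, 94 and 134 had the RNA in their body, 13 in all 4 libraries and 87 in none. These were 16.5%, 19.1%, 34.6% and 49.3% by library. TTN and 3 unnamed RNAs inside it are among the 13 and share bins, so they are not separate findings. The share of all gene bodies reached was not counted, and the part of gene length was not tested. Apart from TTN and the 3 unnamed RNAs inside it, the highest mean signals were at GAPDH, an enzyme of glycolysis, with 0, 2.39, 2.56 and 1.05 per kb, and at DDIT4, a stress-induced inhibitor of mTOR signalling, with 0, 1.34, 1.79 and 2.74 per kb. Neither was reached in LW replicate 1.

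**Figure D5:**
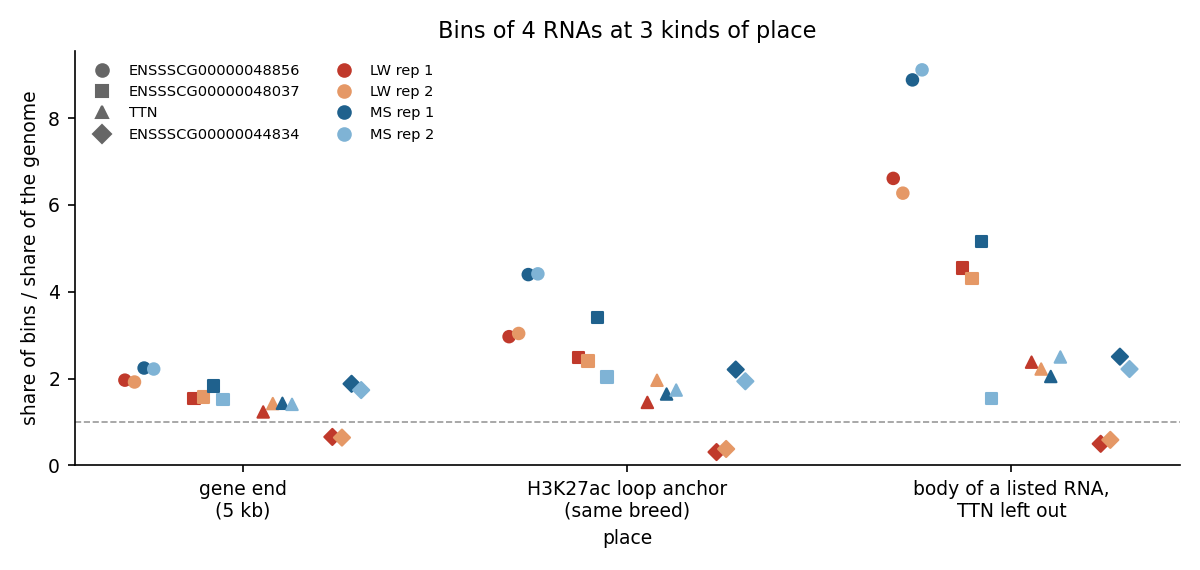
Share of bins divided by the share of the genome for 4 RNAs (marker shape) in 4 libraries (colour) at gene ends, at H3K27ac loop anchors of the same breed, and in bodies of listed RNAs with the TTN gene left out; the dashed line is a ratio of 1. ENSSSCG00000048856 has the highest ratio of the 4 RNAs in each library at each kind of place, from 1.92 at gene ends to 9.11 in bodies of listed RNAs. The 4 RNAs differ in their number of bins, and the part of this in the ratios was not tested.

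At gene ends the RNA was found at 4.15%, 5.84%, 8.46% and 14.0% of 19484 protein-coding genes, and at 23.9% of them in any library. Only 1.43% were reached in 3 or 4 libraries. Among genes with signal in all 4, the highest mean signal on other chromosomes was at SLC35G6, with 1.18, 45.8, 50.8 and 42.0, whose end overlaps that of ZBTB4 with 24.0, 37.8, 35.0 and 35.0. ZBTB4 encodes a zinc finger repressor. DBP followed with 23.7, 38.5, 37.6 and 26.2, and CHRNB1 with 20.8, 34.5, 31.0 and 29.2. Also in the first 10 were SPHK2, TTN, SCAF1, POLR3GL, RRAS and FBXO31, with means of 26.9, 26.3, 25.0, 23.9, 22.9 and 20.2. Because genes in such clusters share bins, SLC35G6, ZBTB4 and CHRNB1 are not separate findings, nor are DBP and SPHK2.

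Most lists of genes active in muscle had larger shares reached than all protein-coding genes, without a test of the difference. The compared RNAs also had sarcomere, glycolysis and, with 1 exception, calcium genes in larger shares. Divided by the share of all protein-coding genes, the share of sarcomere genes was 3.81, 4.51, 3.42 and 3.00 for ENSSSCG00000048856. It was 1.74 to 3.18 for TTN RNA, 1.28 to 3.22 for ENSSSCG00000048037 and 1.43 to 2.66 for ENSSSCG00000044834. For glycolysis genes ENSSSCG00000048856 had 6.03, 3.43, 2.36 and 3.56, the highest among these RNAs in LW. In MS ENSSSCG00000044834 was higher, with 4.61 and 4.08. For calcium genes ENSSSCG00000048856 had 3.29, 3.89, 2.15 and 4.21, the highest except in MS replicate 1, where ENSSSCG00000048037 had 2.71. The share of all protein-coding genes reached was 4.15% to 14.0% for ENSSSCG00000048856. It was 13.6% to 24.8% for TTN RNA, 11.4% to 28.8% for ENSSSCG00000048037 and 7.36% to 10.5% for ENSSSCG00000044834. A larger share lowers the highest ratio that can be reached. In counts ENSSSCG00000048037 reached 14, 19, 20 and 14 sarcomere genes and 6, 7, 11 and 9 glycolysis genes. ENSSSCG00000048856 reached 5, 4, 4 and 10 glycolysis genes. Of 38 matched sarcomere genes, 25 had the RNA at an end in any library, or 65.8% beside 23.9% of all protein-coding genes, and 3, or 7.89% beside 1.43%, had it in at least 3 libraries. By library the numbers were 6, 10, 11 and 16. TTN was the highest, followed by MYLPF, a fast myosin light chain, with 0, 0, 30.8 and 37.3, and by TNNI2, a fast troponin, with 0, 26.96, 0 and 23.2. ACTN3, the fast-fibre alpha-actinin, had 0, 11.3, 0 and 35.5. Of 22 genes of calcium handling, 17, or 77.3%, were reached in any library and 2 in at least 3. CASQ1, the calsequestrin that stores calcium in the sarcoplasmic reticulum, had 21.1, 0, 25.1 and 13.8. Of 20 genes of glycolysis and glycogen, 11, or 55%, were reached, 3 of them in at least 3 libraries, namely PYGM, the muscle glycogen phosphorylase, with 13.6, 0, 42.8 and 28.8, GAPDH with 0, 30.8, 35.8 and 14.2, and GYS1 with 15.2, 9.52, 2.32 and 26.0. Lists not particular to the contractile apparatus were also above the 23.9%, with 6 of 14 myogenic regulators (42.9%), 10 of 24 ribosomal proteins of the cytosol (41.7%) and 9 of 24 proteins of splicing and speckles (37.5%). The median over members of the mean signal was 3.69, 2.68 and 3.06 in the sarcomere, calcium and glycolysis lists, and 0 in the other lists and over all protein-coding genes.

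Counted over any library, markers of other cell types were reached in shares near or below that of all protein-coding genes. In single libraries some shares were above it. The ratio was 3.01 and 2.14 for adipocyte genes in LW and 2.14 for fibroblast genes in LW replicate 2. It was 1.69 and 2.04 for immune genes in MS. Each of these rested on 1 or 2 genes, and in the other libraries these 3 lists had ratios of 0 or below 1. The RNA was at an end of 2 of 8 adipocyte genes (25%), 2 of 8 of the fibroblast list (25%), 2 of 7 of the immune list (28.6%), 1 of 17 genes of other organs (5.88%) and none of 7 endothelial genes, and at none of them in 3 or more libraries. Of the nuclear genes of oxidative phosphorylation 15 of 25 matched the gene table, and 3 of these (20%) were reached. The members of these lists differ in length and in the density of genes around them, and the part of this in the counts was not tested. Among the listed RNAs, 5 of 10 muscle markers were present in each library (TTN, NEB, MYH7, CKM and ATP2A1), 2 or 3 of 5 fibroblast markers, and no adipocyte, endothelial or immune marker.

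Of 2246 windows of 1 Mb on other chromosomes, 523, 709, 739 and 992 held signal, 192 in all 4 libraries, and 840 held none in any. The highest was chr15:84000001-85000000, which holds TTN, with 358, 435, 835 and 1003. It was followed by chr6:54000001-55000000, a gene-dense window with RRAS, SCAF1 and GYS1, with 161, 128, 211 and 404. Then came chr12:1000001-2000000, where LW replicate 2 had none and the others 73.4, 267 and 471, chr6:47000001-48000000 with ACTN4 and RYR1, the calcium release channel of muscle, and chr12:52000001-53000000 with CHRNB1.

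The comparison of the breeds asked whether the places of the RNA differed between LW and MS. In limma on the quantile-normalized log2(signal + 1) scale no window of 1513 with signal in any library passed an adjusted p of 0.05 (0% called), and 59 had an unadjusted p under 0.05. All 59 also had a log2 fold change above 2, the study's threshold for RNA-chromatin signal, which is 3.9% of windows, 33 higher in LW and 26 in MS. Without quantile normalization that split was 29 higher in LW and 146 in MS, and with a pseudocount of 0.1 it was 167 and 4, both counted with the same fold threshold, so the windows as a whole have no direction that holds across settings. Leaving out 1 library moved the 59 to between 17 and 324. The windows of smallest p had signal in both libraries of one breed and none in the other. In LW these were led by chr18:2000001-3000000, with 68.0 and 55.0 and an unadjusted p of 0.0078 (adjusted p = 0.67), and in MS by chr3:110000001-111000000, with 101 and 182 and an unadjusted p of 0.018 (adjusted p = 0.67).

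At gene ends none of 5761 genes with signal in any library passed an adjusted p of 0.05 (0% called), and 540 had an unadjusted p under 0.05. Of these 531, or 9.22% of the genes, also passed a log2 fold change of 2, with 101 higher in LW and 430 higher in MS. Without quantile normalization that split was 74 and 490. With either LW library left out it turned, with more genes higher in LW than in MS, so this direction does not hold across settings. In the main setting the smallest adjusted p by limma was 0.17. Higher in LW were CDR2L, with 26.3 and 33.1 in LW and 0 and 0.044 in MS, and PSME1, a subunit of the proteasome activator, with 25.8 and 24.0 against 0 and 0. PRR29, LOC110257453, which lies beside TNNC2, and TRNAV-UAC, which lies within CDR2L, were the other 3 of smallest p in LW. Higher in MS were EHBP1L1, with 50.4 and 75.7 in MS and 0 in both LW libraries, and TBC1D10B, with 45.7 and 51.0 against 0 and 0. SSSCA1, FAM89B and MRPS7, a mitochondrial ribosomal protein, completed the 5 in MS. EHBP1L1, SSSCA1 and FAM89B lie 73419, 67576 and 69634 bp from the RNA's own gene, inside the run of bins that started over that gene in the MS libraries. A value of 0 means that no bin was listed, not that there was no contact. Leaving out MS replicate 2 gave 1394 genes with an adjusted p under 0.05, and leaving out any other library gave none.

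The bins that both libraries of a breed shared and no library of the other breed had can be described in the same way. In LW there were 963 such bins on other chromosomes in 60 regions, in MS 8154 in 415 regions. The longest in LW were 34 kb in R3HDM2 and 31 kb at BICDL1 and RAB35, and a region of 27 kb held TNNC2, a fast troponin. In MS the longest were 43 kb at NKTR, ZBTB47, KLHL40 and HHATL, of which KLHL40 is a stabilizer of the thin filament, and 43 kb in RREB1, and a region of 41 kb held MYLK2, the myosin light chain kinase of skeletal muscle. These regions were picked by length after their values were seen and were not tested.

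Among the 9 RNAs that reached at least 10 other chromosomes in all 4 libraries, the profile over 1-Mb windows most like that of ENSSSCG00000048856 was that of ENSSSCG00000048037, with a mean Spearman correlation of 0.406 over the 4 libraries. Others among the 5 most alike were NEB with 0.256, CMTM4 with 0.213 and TTN with 0.191. Of the 9, ENSSSCG00000044834 was the least like, at -0.035. In single bins, the share of the RNA's bins that were also listed for another RNA was set against the share of the genome which that RNA covered. For TTN RNA that ratio was 2.33, 2.54, 2.04 and 2.53, for ENSSSCG00000048037 2.60, 2.56, 4.62 and 1.88, and for ENSSSCG00000044834 0.516, 0.499, 3.06 and 2.82. ENSSSCG00000044834 also differed between the breeds in its number of bins, with 237150 and 203099 for LW and 47717 and 46333 for MS, and the part of this in its ratio was not tested.

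The gene of ENSSSCG00000048856 was itself joined to its surroundings by H3K27ac loops. Within 5 kb of it 15, 11, 13 and 7 loops had an anchor in the BL-HiChIP libraries, with a summed -log10 FDR of 254, 387, 311 and 358. The groups overlapped. The log2 fold change of this loop score in LW against MS was -0.37 ± 0.61 (SE), with an adjusted p of 0.985 by limma over 17630 genes with a loop. None of those genes passed an adjusted p of 0.05 (0% called), 1097 had an unadjusted p under 0.05, and all of these, 6.22%, had a log2 fold change above 1.5. The strongest loop in each library spanned 55 to 70 kb and ended at or just past LOC100513133. It ended at chr2:6815001-6820000 in LW replicate 1 and both MS replicates, where the -log10 FDR was 116, 143 and 157, and at the bin next to it, chr2:6810001-6815000, with 253 in LW replicate 2. Of 33 different pairs of anchors 1 was called in all 4 libraries, chr2:6745001-6750000 with chr2:6750001-6755000, and 24 in 1 library alone. The far anchors were more alike than the pairs. Bins at chr2:6765001-6770000 and chr2:6785001-6790000, inside LOC102163816, and at chr2:6830001-6835000 in FRMD8 were reached in all 4 libraries, and bins at TIGD3 and at the far end of FRMD8 in 3.

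The anchor on the RNA's side differed between libraries. An anchor overlapped the gene itself in 8 of 15 and 9 of 11 loops of the LW libraries and in 2 of 13 and 3 of 7 loops of the MS libraries, and the others ended in the bins on either side. When only loops with an anchor overlapping the gene were scored, the scores of the LW libraries were 141 and 381, those of the MS libraries 7.72 and 187, and the fold change turned to 2.30 ± 1.51 (SE) with an adjusted p of 0.896. The groups overlapped again. No difference between the breeds was detectable in either score with 2 libraries each.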

How the data were processed

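GRID-seq and H3K27ac BL-HiChIP lists from longissimus muscle of LW and MS piglets were analysed, 2 libraries per breed and assay. For GRID-seq the authors split reads at the linker into RNA and DNA ends of 17 to 23 bases, mapped each with Bowtie2 to Sscrofa11.1, removed ambiguous pairs with SAMtools, selected chromatin-enriched RNAs and corrected DNA ends for background. The deposited value per RNA was read as a count of RNA reads, and the deposited value in each 1-kb DNA bin as a signal after background correction. Both readings come from the values, since the lists have no column names. For BL-HiChIP the authors called 5-kb loops per library with FitHiChIP, and the deposited value was read as an adjusted p-value (FDR). Per the submitters' processing notes, Bowtie2 was version 2.2.5 and SAMtools version 1.9. Reads on listed RNAs numbered 8181721, 9943666, 7172517 and 9381797. The depth behind the loops is unknown here. An RNA or bin missing from a list is under the list's minimum, with no count behind it.

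Bins listed more than once were summed. Genes were placed by a RefSeq table of the same assembly, which has no strand, so both gene ends were used. No genome sequence was used. Reads of RNAs listed in all 4 libraries were tested with edgeR 4.0.16 (TMM, quasi-likelihood), and windows, gene ends and loop scores with limma 3.58.1 on log2(value + 1) after quantile normalization, in R 4.3.3, with Benjamini-Hochberg adjustment. With this pseudocount, fold changes of low values come out too small. The tests were also run on simulated data with known changes. For windows, gene ends and loops these had large changes, less noise than the data and no quantile normalization. That run therefore says nothing about the power to find differences here. Other steps used Python 3.11.15, numpy 2.4.6, pandas 2.3.3, scipy 1.17.1 and matplotlib 3.10.9. Alternatives covered DESeq2 1.42.0, normalization, the pseudocount, filters, distances, a replicate block and leaving out each library. Genes named were the RNA itself, RNAs within 200 kb, 3 compared RNAs, the most alike RNAs, the 10 highest genes, the 5 highest windows, up to 5 windows or genes a direction in each test and the highest of each gene list. The RNA, the lists and the tests were chosen with earlier results of these data known. Results for 1 RNA and 1 gene that this choice named or that lay nearby are not reported here.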

Additional observations from a re-analysis of the deposited data

How the results depend on the processing

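Of 103 alternative values, 62 kept their direction and their side of the threshold or moved by less than the spread, 1 no longer passed, 38 moved and 2 reversed. The cause was not tested for any of them, except where an alternative tests fewer genes or libraries by construction. The read fold change without TMM was -0.24 and no longer passed. Windows past the fold and an unadjusted p, 59 in the report, numbered 175 without quantile normalization, 175 scaled to the summed signal, 171 with a pseudocount of 0.1, 3 among windows with signal in all 4 libraries, 31 in 5-Mb windows and 17 to 324 with 1 library left out (17 without MS replicate 1, 324 without LW replicate 1). Genes past the same criteria, 531 in the report, numbered 2 among genes with signal in all 4 libraries, 307 within 1 kb, 821 within 20 kb and 874 to 1159 with 1 library left out. Genes with an adjusted p under 0.05 numbered 0 to 1394 with 1 library left out, 1394 only without MS replicate 2. The loop score reversed to 2.30 for anchors within 1 kb and to 2.30 for anchors overlapping the gene.

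The mean share of signal on other chromosomes, 75.5%, was 89.98% when counted in bins. The mean share of bins at gene ends, 36.8%, was 13.7% within 1 kb, 67.2% within 20 kb, 31.8% for protein-coding genes, 40.7% by signal and 35.9% to 37.7% with 1 library left out. The mean share on anchors, 42.2%, was 15.0% with loops of both libraries, 35.6% at an FDR of at most 0.001, 53.8% by signal and 40.7% to 43.8% with 1 library left out. The highest likeness was 0.623 in 5-Mb windows. Bodies of listed RNAs held 4.73% without TTN and 5.21% to 5.75% with 1 library left out.

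With the replicate number as a block, a fit that assumes pairs the labels do not state, genes past the fold and an unadjusted p numbered 225 and windows 62, and the fold changes were -0.27 for reads and -0.37 for the loop score (adjusted p = 0.792 by limma). Same-numbered libraries had correlated deviations of 0.939 for reads, 0.0061 for windows, -0.013 for gene ends and 0.398 for loops, and with 2 pairs this does not show pairing. Only 2 libraries a breed, and lists without values under a minimum, limit all comparisons of places.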
